A study of Mus musculus with 8 samples.

Results

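The transcripts of 10 genes of hepatic iron handling were followed in the livers of mice that lack the melanocortin 1 receptor (MC1R) in hepatocytes and of their controls. The genes were taken as a named list, matched by symbol to the deposited count tables, and are Hamp, Hamp2, Tfrc, Tfr2, Trf, Slc40a1, Fth1, Ftl1, Hfe and Bmp6, which makes 10 of the 55487 genes listed. Mc1r LKO mice carried a homozygous floxed Mc1r allele (Mc1r fl/fl) together with a Cre transgene driven by the albumin promoter (Alb Cre/+), and controls were Mc1r fl/fl mice of the same age. All mice were male, were 8 weeks old when they were placed on a Western diet rich in cholesterol, which lasted 12 weeks, and were fasted for 4 hours before the liver was collected. RNA-Seq libraries were made from the whole liver of 4 controls (mice 154, 159, 181 and 193) and of 4 Mc1r LKO animals (mice 141, 156, 157 and 182). The comparison asks whether the hepatic transcriptome differs between the genotypes under this diet. The controls are not described as carrying Cre, so that the loss of Mc1r and the presence of the transgene cannot be told apart.

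Hepcidin, the peptide encoded by Hamp, is secreted by hepatocytes and binds ferroportin (Slc40a1), the iron exporter of macrophages, enterocytes and hepatocytes, which is then degraded. Its transcription follows iron through BMP6 and BMP2, ligands made mainly by the sinusoidal endothelium, which act on hepatocyte BMP receptors and SMAD proteins with the help of hemojuvelin, HFE and transferrin receptor 2, and it follows inflammation through IL-6 and STAT3. Inside the cell, iron regulatory proteins bind a stem-loop called the iron-responsive element (IRE) when iron is low, which blocks translation from a 5′ UTR and stabilises the transcript from a 3′ UTR.

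The promoters of the hepcidin genes are shown because both routes of control end there. In GRCm38 the gene Hamp spans chr7:30942368-30944032 and its paralog Hamp2 spans chr7:30922372-30924681, both on the minus strand. RefSeq promoter sequences (GRCm38.p6, 250 bases before the start and 50 after it) were found for 8 of the 10 genes, with Trf and Slc40a1 as the exceptions. Only the 250 bases before the start were searched, on both strands, for GGCGCC, the core of the BMP-responsive element, and for TTCTTGGAA, a STAT-binding sequence. Capitals mark GGCGCC (or the bases aligned with it) and TTCTTGGAA in the last 160 bases before each start:
Hamp, chr7:30944030-30944189, minus strand: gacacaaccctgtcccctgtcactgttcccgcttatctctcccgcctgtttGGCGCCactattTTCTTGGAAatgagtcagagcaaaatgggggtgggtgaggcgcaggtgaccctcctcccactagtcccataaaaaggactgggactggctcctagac
Hamp2, chr7:30924182-30924341, minus strand: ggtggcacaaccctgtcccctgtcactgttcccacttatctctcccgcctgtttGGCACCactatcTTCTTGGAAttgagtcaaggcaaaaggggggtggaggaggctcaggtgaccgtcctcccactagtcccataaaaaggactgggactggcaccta

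The windows were alike over 144 of 163 aligned columns (88.3%). The window of Hamp2 lies before its RefSeq start but inside the span of the counted gene, which reaches chr7:30924681. Hamp held GGCGCC from position -109 to -104 and TTCTTGGAA from -97 to -89, counted from the start of transcription. Hamp2 held the same TTCTTGGAA, from -94 to -86, whereas the bases aligned with GGCGCC differed by G4A, with positions counted from 1 at the 5′ end of the element. GGCGCC was present in 9.59% of the 32851 mouse promoters searched and TTCTTGGAA in 0.365%. Among the other genes only the promoter of Tfrc held either of them, GGCGCC from -89 to -84. A match describes the letters of a window and does not show that a factor binds there.

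On GRCm38, Tfrc spans chr16:32608920-32632794 and Tfr2 chr5:137569840-137587481 on the plus strand, and Trf chr9:103204001-103230444 and Slc40a1 chr1:45908068-45926523 on the minus strand. Fth1 (chr19:9980598-9985098) and Bmp6 (chr13:38345107-38500302) lie on the plus strand, and Ftl1 (chr7:45457944-45459884) and Hfe (chr13:23702034-23710854) on the minus strand. IREs were searched in the transcripts (GENCODE M21, GRCm38) as a C, 5 bases, CAGTGN and 5 bases that pair with the first 5. Of the 10 genes, 4 held a match, and 272 of 21901 coding genes did (1.24%). The transcript form searched, for example that of Fth1, was not chosen by the same rule for both counts. The counts are therefore given side by side and are not compared. These elements are shown because they set Tfrc apart from the ferritin and ferroportin genes, with 4 matches in its 3′ UTR against 1 match in the 5′ UTR of each of the others. Each is given as 30 bases, with the bulged C and the CAGTGN loop in capitals:
Tfrc 3′ UTR, chr16:32631219-32631248, plus strand: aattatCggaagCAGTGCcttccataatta
Tfrc 3′ UTR, chr16:32631598-32631627, plus strand: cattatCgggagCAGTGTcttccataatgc
Tfrc 3′ UTR, chr16:32631663-32631692, plus strand: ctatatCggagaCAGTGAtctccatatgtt
Tfrc 3′ UTR, chr16:32631710-32631739, plus strand: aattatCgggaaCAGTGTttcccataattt
Slc40a1 5′ UTR, chr1:45925464-45925493, minus strand: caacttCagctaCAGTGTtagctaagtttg
Fth1 5′ UTR, chr19:9982732-9982761, plus strand: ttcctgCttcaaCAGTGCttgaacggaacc
Ftl1 5′ UTR, chr7:45459778-45459807, minus strand: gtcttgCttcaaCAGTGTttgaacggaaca

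Depth and the state of the libraries set the limits of the comparison. Between 10773151 and 24763375 read pairs were counted on genes in each mouse. Where none was counted, up to 3 counts remain possible by counting error alone, which correspond to 0.121 to 0.278 CPM, the counts of a gene scaled by library size. Mc1r had 0 counts in all 8 mice, so that the genotype could not be checked against it. Mc1r LKO mouse 182 (59.3) and control mouse 181 (27.8) stood apart on the first principal component, on which the other mice lay between -28.2 and -7.03. Control mouse 159, which also had the fewest counts, stood apart on the second (40.5), with the other mice between -22.0 and 8.40. Values that any of these 3 mice decide are given with and without them. After filtering, 13400 genes were tested by quasi-likelihood in edgeR, with p-values adjusted after Benjamini and Hochberg. None had an adjusted p-value under 0.05, 901 had an unadjusted p-value under 0.05, and DESeq2 and limma-voom called 17 and 0 genes at their adjusted p-values, none of them an iron gene. Differentially expressed genes (DEGs) are therefore given past an unadjusted threshold, p under 0.05 together with a log2 fold change of 0.25 or more in either direction, which 711 genes passed (5.31%), 354 of them higher (2.64%) and 357 lower (2.66%) in Mc1r LKO mice.

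All 10 iron genes passed the filter on low counts. No difference between the genotypes passed the adjusted p-value in any of them. At the unadjusted threshold 2 of the 10, Hamp2 and Hfe, were higher in Mc1r LKO mice, beside 2.64% of the genes tested. Lower were 0 of the 10, beside 2.66%. None of the 10 had genotypes that did not overlap, against 4.16% of the genes tested. The median log2 fold change of the 10 genes was 0.16, beside -0.01 for all genes tested. When control mouse 159 was left out, 0 of the 10 passed, and between 1 and 3 passed when each other mouse was left out (1 without control 181, Mc1r LKO 141 or Mc1r LKO 156).

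**Figure D1:**
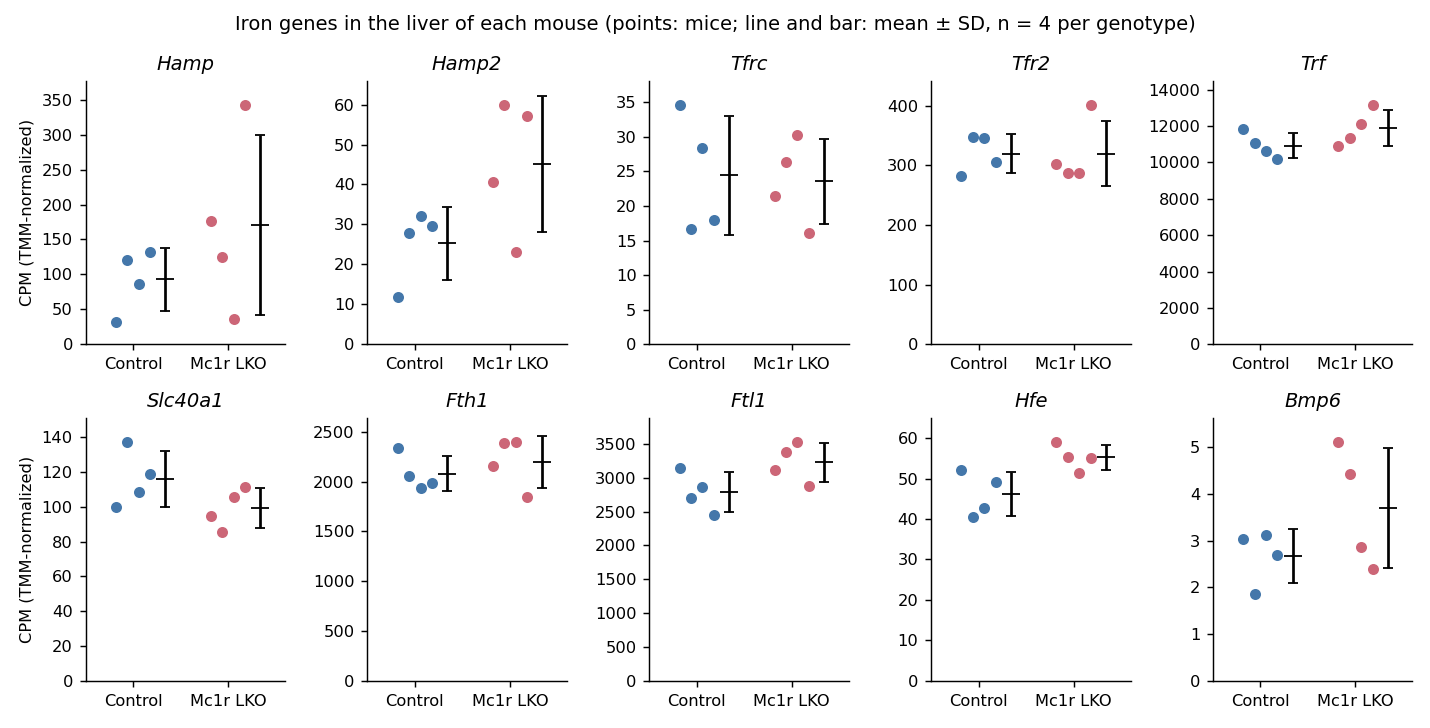
CPM after TMM normalization of each iron gene on the y axis, with the 4 control and 4 Mc1r LKO mice as points and the mean ± SD beside them. The Hamp values run from 32.3 to 343 CPM, whereas Trf, Fth1 and Ftl1 stay within a narrow band in all mice.

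**Figure D2:**
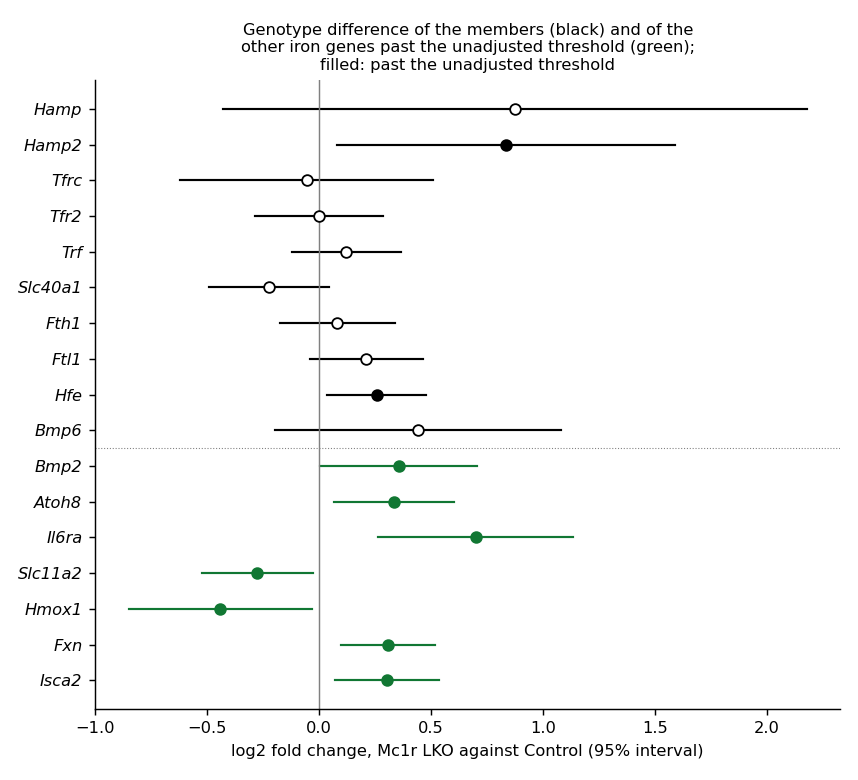
Log2 fold change of Mc1r LKO against control mice on the x axis, with its 95% interval, for the 10 iron genes (black) and for the 7 other iron genes that passed the unadjusted threshold (green). Filled points passed that threshold, and the interval of Hamp, from -0.43 to 2.18, is the widest shown.

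Levels were compared between genes per kilobase of annotated exon, as the mean CPM per kb over the 8 mice. Trf, which encodes the iron carrier transferrin, was the most abundant at 3435 CPM per kb, followed by the ferritin genes Ftl1 at 2244 and Fth1 at 616 CPM per kb and by Hamp at 321 CPM per kb. Tfr2 was at 73.8 and Hamp2 at 60.4 CPM per kb. The range of Hamp over the mice reached into those of Fth1 above it and of Tfr2 and Hamp2 below it, and the range of Hamp2 covered that of Tfr2, so that these neighbours are not separated by their spread. Hfe was at 14.2 and Slc40a1 at 12.0 CPM per kb, with overlapping ranges, and Tfrc was at 3.88 CPM per kb, far below the other transferrin receptor gene. Bmp6 had the lowest level, 0.82 CPM per kb. The exon lengths include every annotated transcript form of a gene, 9000 bases for Slc40a1 and 3469 bases for Fth1, which lowers the value per kb of genes with many forms.

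Hamp transcripts varied more between mice than those of any other gene of the 10. The control mice had 32.3 (154), 121 (159), 85.9 (181) and 132 CPM (193), and the Mc1r LKO mice had 177 (141), 125 (156), 36.0 (157) and 343 CPM (182). Each genotype thus held a mouse near the bottom of the range, and the highest value, in Mc1r LKO mouse 182, was 10.6 times the lowest. The mean was 92.9 ± 45.0 CPM in control mice and 170 ± 129 CPM in Mc1r LKO mice (SD, n = 4 each), a log2 fold change of 0.87 with a standard error of 0.59 and a 95% interval from -0.43 to 2.18 (edgeR quasi-likelihood, adjusted p = 0.843). The log2 fold change was 0.28 when Mc1r LKO mouse 182 was left out, 0.25 when both 181 and 182 were, and 1.22 when Mc1r LKO mouse 157 was, where it passed the unadjusted threshold. The SD of log2 CPM between mice of 1 genotype was 1.17, and 98.7% of the genes tested had a lower SD.

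Hamp2 was higher in Mc1r LKO mice at the unadjusted p-value. It was at 11.8, 27.8, 32.0 and 29.6 CPM in control mice 154, 159, 181 and 193, and at 40.6, 59.9, 23.0 and 57.1 CPM in Mc1r LKO mice 141, 156, 157 and 182. The Mc1r LKO mice lay above every control mouse apart from mouse 157, which was below 3 of the 4 controls. The fitted difference was a log2 fold change of 0.83 with a standard error of 0.34 and a 95% interval from 0.08 to 1.59 (edgeR quasi-likelihood, adjusted p = 0.734). The unadjusted call was lost without control mouse 154 (0.60), control mouse 159 (0.89), Mc1r LKO mouse 156 (0.67), Mc1r LKO mouse 182 (0.70) or both 181 and 182 (0.84), each given as the log2 fold change.

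The hepcidin genes were set against each other within each mouse, which does not depend on normalization. Hamp2 made up 26.8%, 18.7%, 27.2% and 18.3% of the counts of both genes in control mice 154, 159, 181 and 193, and 18.6%, 32.4%, 39.0% and 14.3% in Mc1r LKO mice 141, 156, 157 and 182. The lowest and the highest share were both in Mc1r LKO mice. The log2 ratio of Hamp2 to Hamp was higher by 0.18 in Mc1r LKO mice (exact permutation test, two-sided, p = 0.771, where 4 against 4 allows no p below 0.0286), and the difference was -0.14 without Mc1r LKO mouse 157. Their transcripts, in the first form annotated for each, were identical in 388 of 420 aligned columns (92.4%). Of the 50-base stretches of Hamp, 16.6% occurred in Hamp2, and none of its 100-base stretches did, so that the share of reads that cannot be assigned to either gene depends on the read length, which is not given in the sources used here.

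**Figure D3:**
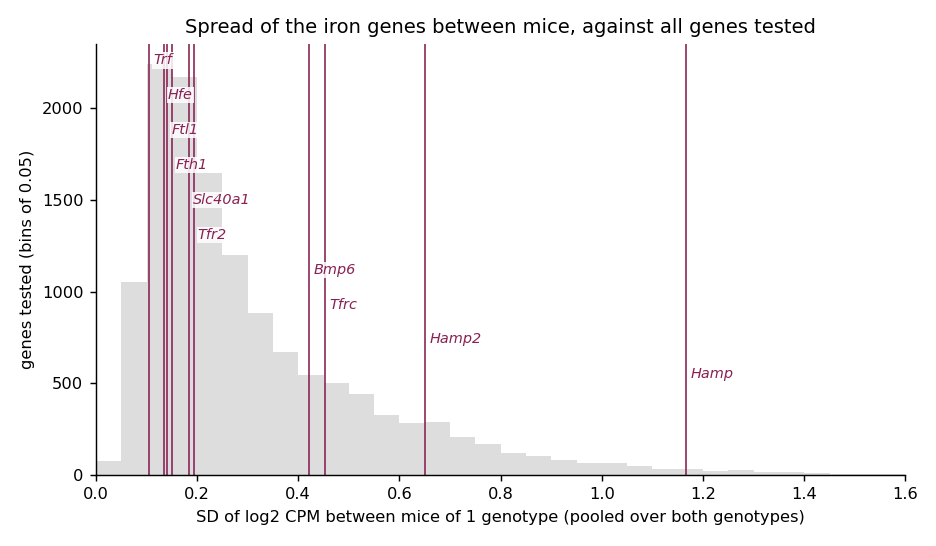
SD of log2 CPM between mice of 1 genotype, pooled over both genotypes, on the x axis and the number of genes tested per bin of 0.05 on the y axis, with 1 line per iron gene. The line of Hamp, at 1.17, lies in the right tail of the genes tested, whose median is 0.23, and that of Trf, at 0.11, lies near the left end.

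Of the genes upstream of hepcidin, Bmp6, the iron-regulated ligand, was low in every mouse. It had 57, 20, 60 and 66 counts, or 3.03, 1.86, 3.13 and 2.69 CPM, in control mice 154, 159, 181 and 193, and 74, 68, 71 and 47 counts, or 5.12, 4.42, 2.87 and 2.40 CPM, in Mc1r LKO mice 141, 156, 157 and 182. Mice 141 and 156 lay above all controls and the other Mc1r LKO mice lay among them. Its log2 fold change was 0.44 with a standard error of 0.29 (edgeR quasi-likelihood, adjusted p = 0.840), and it ranged from 0.26 (without Mc1r LKO mouse 141) to 0.60 (without Mc1r LKO mouse 182) when 1 mouse was left out. Without both 181 and 182 it was 0.68 and past the unadjusted threshold. The summed level of 8 markers of sinusoidal endothelial cells was 219 to 280 CPM in control mice and 159 to 277 CPM in Mc1r LKO mice (247 to 277 CPM without mouse 182), with no marker at 0 in all mice. Over the 8 mice the mean log2 CPM of these markers and Bmp6 had a Pearson's r of 0.35 and a Spearman's rho of 0.24 (exact permutation p = 0.381 and 0.582, adjusted p = 0.581 and 0.917), and r was 0.43 without mice 181 and 182.

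Hfe, which encodes a membrane protein that takes part in iron sensing, was higher in Mc1r LKO mice at the unadjusted p-value. Control mice 154, 159, 181 and 193 had 52.2, 40.5, 42.7 and 49.2 CPM, and Mc1r LKO mice 141, 156, 157 and 182 had 59.1, 55.3, 51.4 and 55.0 CPM. The genotypes overlapped only through control mouse 154, which lay above Mc1r LKO mouse 157. The difference on the log2 scale was 0.26 with a standard error of 0.10 and a 95% interval from 0.04 to 0.48 (edgeR quasi-likelihood, adjusted p = 0.734). The unadjusted threshold was not reached without control mouse 159 (0.21), control mouse 181 (0.22), Mc1r LKO mouse 141 (0.23) or both 181 and 182 (0.23).

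Tfr2, the receptor by which hepatocytes sense transferrin-bound iron, had a log2 fold change of 0.00 with a 95% interval from -0.29 to 0.29. It was between 281 and 347 CPM in control mice and between 288 and 402 CPM in Mc1r LKO mice. The value of 402 CPM belonged to mouse 182, and the other Mc1r LKO mice lay between 288 and 302 CPM.

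The BMP and SMAD list held 21 tested genes, Bmp6, Hfe and Tfr2 among them, and its median log2 fold change was 0.02. Of the 21 genes, 3 were DEGs (Hfe, Bmp2 and Atoh8), all higher in Mc1r LKO mice, beside 2.64% of all genes tested. Bmp2, the endothelial ligand that sets basal hepcidin, was at 12.1 ± 2.84 CPM in control mice and 15.5 ± 1.23 CPM in Mc1r LKO mice (log2 fold change 0.36, adjusted p = 0.738 in edgeR), with control mouse 154 inside the Mc1r LKO range and the call lost when any mouse other than control 154 or Mc1r LKO 157 was left out (0.29 to 0.37), and without both 181 and 182 (0.26). Atoh8, a BMP-responsive transcription factor, was at 16.2, 22.4, 19.7 and 22.6 CPM in control mice 154, 159, 181 and 193 and at 25.6, 27.4, 26.2 and 22.8 CPM in Mc1r LKO mice 141, 156, 157 and 182. Its genotypes did not overlap, although Mc1r LKO mouse 182 lay just above the highest controls, and the log2 fold change was 0.33 (edgeR quasi-likelihood, adjusted p = 0.734). The call was lost without control mouse 154 (0.24, just under the fold limit) or Mc1r LKO mouse 156 (0.30).

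Other BMP target genes did not pass the threshold. Id1, a direct SMAD target, had a log2 fold change of 0.36 (edgeR, adjusted p = 0.776), whereas Smad6 and Smad7, the inhibitory SMADs that BMP signals switch on, had -0.14 and -0.17 (edgeR, adjusted p = 0.958 and 0.907). The BMP co-receptor hemojuvelin (Hjv) had -0.14 and Tmprss6, the protease that cleaves it, -0.01. Erfe, the erythroid hormone that lowers hepcidin, had 4 counts over all mice and did not pass the filter.

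The IL-6 and STAT3 list held 16 tested genes with 1 DEG, Il6ra, beside 5.31% of all genes tested. Its median log2 fold change was -0.08, with 6 genes above 0 and 10 below. Il6ra, the ligand-binding IL-6 receptor, was at 21.5, 24.7, 18.5 and 27.4 CPM in control mice 154, 159, 181 and 193 and at 36.8, 30.0, 29.6 and 52.9 CPM in Mc1r LKO mice 141, 156, 157 and 182. The genotypes did not overlap, and mouse 182 was far above the rest. Between the genotypes the log2 fold change was 0.70 with a standard error of 0.20 (edgeR quasi-likelihood, adjusted p = 0.734), it was 0.49 without mouse 182, and it passed the unadjusted threshold when any single mouse was left out. Il6 itself had 3 counts in all mice together. The STAT3 targets Saa1 and Socs3 had log2 fold changes of -0.23 and -0.23 (edgeR, adjusted p = 0.926 and 0.965). In both, control mouse 159 had the highest value, 234 CPM for Saa1 and 24.5 CPM for Socs3, and their log2 fold changes without this mouse are not reported here. For Saa1 the other controls had 76.3 to 157 CPM, against 92.0 to 130 CPM in Mc1r LKO mice. For Socs3 they had 3.86 to 5.16 CPM, against 5.05 to 14.8 CPM in Mc1r LKO mice.

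**Figure D4:**
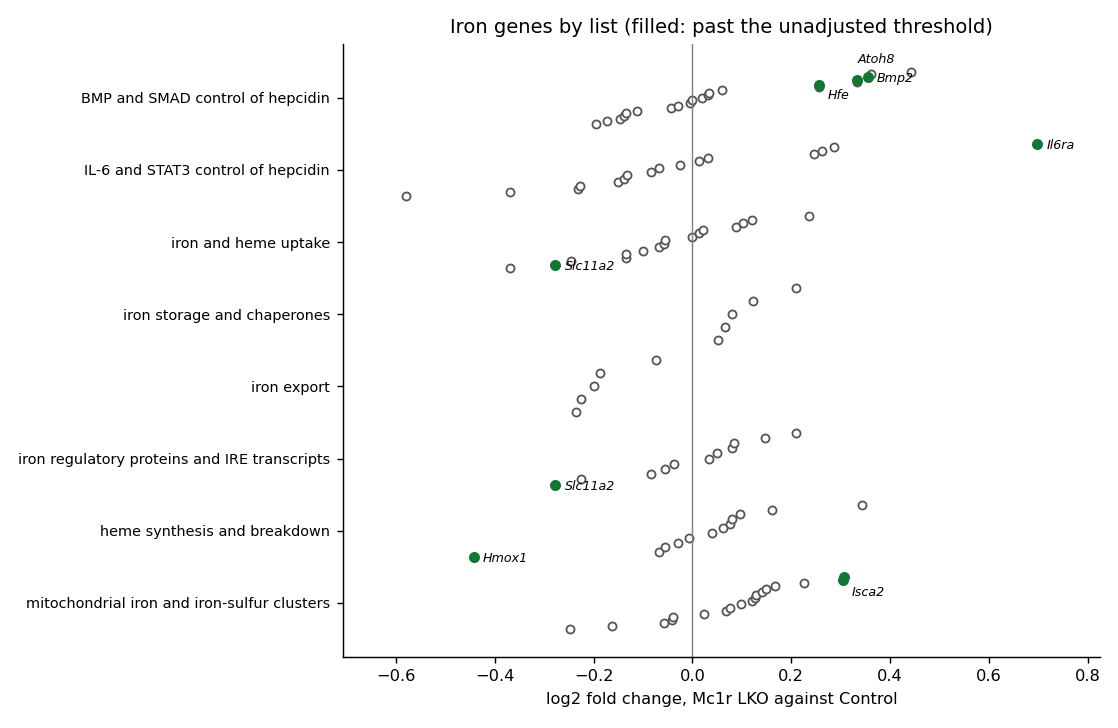
Log2 fold change of Mc1r LKO against control mice on the x axis for the tested genes of each iron list on the y axis, with genes past the unadjusted threshold filled and, except for 1, named. Most genes lie within 0.4 of 0 in either direction, and Il6ra, at 0.70, lies farthest to the right.

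Among the genes of iron entry, Tfrc, the transferrin receptor found on most dividing cells, spread widely between mice, with no genotype difference past the threshold. It was at 34.6, 16.7, 28.5 and 18.0 CPM in control mice 154, 159, 181 and 193 and at 21.5, 26.3, 30.3 and 16.1 CPM in Mc1r LKO mice 141, 156, 157 and 182. Both genotypes covered almost the same range. On the log2 scale the fold change was -0.06 with a standard error of 0.26 (edgeR quasi-likelihood, adjusted p = 0.985), and it was above 0 without control mouse 154 (0.16), control mouse 181 (0.02) or Mc1r LKO mouse 182 (0.09). The log2 ratio of Tfr2 to Tfrc was higher by 0.02 in Mc1r LKO mice (exact permutation test, two-sided, p = 1), a difference that was below 0 without the same mice (-0.23, -0.04 and -0.27).

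Of the 16 tested genes of iron and heme uptake, 1 was a DEG, beside 5.31% of all genes tested, and the median log2 fold change was -0.06. Slc11a2, the divalent metal transporter DMT1, was lower in Mc1r LKO mice at the unadjusted p-value, with 36.3, 34.1, 40.7 and 35.2 CPM in control mice 154, 159, 181 and 193 against 28.8, 25.1, 33.2 and 33.5 CPM in Mc1r LKO mice 141, 156, 157 and 182. The genotypes did not overlap, with less than 1 CPM between the lowest control mouse and the highest Mc1r LKO mouse. The log2 fold change was -0.28 (edgeR quasi-likelihood, adjusted p = 0.734), and the call was lost without control mouse 154 (-0.28) or 181 (-0.22) or Mc1r LKO mouse 141 (-0.25) or 156 (-0.20). Slc39a14 (ZIP14), the hepatocyte importer of iron not bound to transferrin, had a log2 fold change of 0.10 (edgeR, adjusted p = 0.946).

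The ferritin genes, which encode the subunits of the iron storage shell, were abundant and even. Fth1 was between 1936 and 2333 CPM in control mice and between 1848 and 2402 CPM in Mc1r LKO mice, with a log2 fold change of 0.08 (edgeR, adjusted p = 0.929). Ftl1 was at 3148, 2695, 2860 and 2454 CPM in control mice 154, 159, 181 and 193 and at 3115, 3378, 3531 and 2875 CPM in Mc1r LKO mice 141, 156, 157 and 182. Control mouse 154 lay inside the Mc1r LKO range and the other controls lay below it. The log2 fold change of Ftl1 was 0.21 with a standard error of 0.11 (edgeR quasi-likelihood, adjusted p = 0.786), and it passed the unadjusted threshold without control mouse 154 (0.28) or Mc1r LKO mouse 182 (0.27). The log2 ratio of Fth1 to Ftl1 differed by -0.13 (two-sided exact permutation test, p = 0.114), and by -0.18 without control mouse 181 (p = 0.029, the smallest that 3 against 4 allows). Of the 100-base stretches of the Ftl1 transcript, 60.4% also occurred in 4 other genes (Ftl1-ps1, Ftl2-ps, Gm15590 and Gm22133). Gm22133 overlaps Ftl1 on the same strand over 109 exon bases. Reads that align to several places or are shared between genes were not counted, so that the level of Ftl1 is uncertain. The storage and chaperone list had 0 DEGs among 5 tested genes, with log2 fold changes above 0 in all 5, and Ncoa4, the receptor that delivers ferritin for breakdown, had 0.05 (edgeR, adjusted p = 0.954).

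For export, Slc40a1 (ferroportin) was at 100, 137, 109 and 119 CPM in control mice 154, 159, 181 and 193 and at 94.6, 85.4, 106 and 111 CPM in Mc1r LKO mice 141, 156, 157 and 182. Control mice 154 and 181 lay within the range of the Mc1r LKO mice, and 159 and 193 lay above it. The log2 fold change was -0.22 with a standard error of 0.12 and a 95% interval from -0.49 to 0.04 (edgeR quasi-likelihood, adjusted p = 0.786). It passed the unadjusted threshold when control mouse 154 (-0.28), Mc1r LKO mouse 182 (-0.28) or both 181 and 182 (-0.31) were left out. Over all omissions of 1 mouse it ranged from -0.28 to -0.13, and control mouse 159 held the highest value. All 5 genes of the export list had log2 fold changes below 0, with a median of -0.20 and 0 DEGs, and Cp (ceruloplasmin, the ferroxidase that oxidises exported iron) had -0.07 (edgeR, adjusted p = 0.932).

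Markers of the cell types of the liver were examined beside these values. In whole liver, fewer cells of a type and less RNA per cell cannot be told apart. All 8 Kupffer cell markers had a log2 fold change below 0, with a median of -0.44, 1 of them a DEG (Csf1r, -0.77) and none at 0 in all mice, and their summed level was 295 to 740 CPM in control mice and 195 to 458 CPM in Mc1r LKO mice. The highest sum was in control mouse 159 and the lowest in Mc1r LKO mouse 182. Without mouse 159 the median was -0.15, with 6 of 8 below 0, and without mouse 182 it was -0.28, with 7 of 8 below 0, and in neither case was a marker a DEG. Slc40a1 and Hmox1 are both expressed by these macrophages, and the part of the markers in the Hmox1 values was not tested. Over the 8 mice the mean log2 CPM of the Kupffer cell markers and Slc40a1 had a Pearson's r of 0.35 and a Spearman's rho of 0.10 (exact permutation p = 0.388 and 0.840, adjusted p = 0.581 and 0.917), and r was 0.25 without mice 156 and 159 and -0.36 without control mouse 159. All 8 hepatocyte markers, the defining Alb and Ttr among them, had a log2 fold change above 0, with a median of 0.21 and 1 DEG (Tat, 0.88), but without mouse 182, which had the highest values of Serpina1c (3948 CPM) and Cps1 (2804 CPM), 6 of 8 were above 0 and the median was 0.05. The 7 erythroid markers summed to 182 to 232 CPM in control mice and 199 to 270 CPM in Mc1r LKO mice. The 5 of them that were tested all had a log2 fold change above 0, with a median of 0.32 and 0 DEGs.

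Trf, the plasma iron carrier made by hepatocytes, was between 10174 and 11818 CPM in control mice and between 10929 and 13164 CPM in Mc1r LKO mice. The log2 fold change of Trf was 0.12 (edgeR, adjusted p = 0.891), and its SD of log2 CPM within a genotype, 0.11, was the smallest of the 10 genes. Of the 100-base stretches of its transcript, 77.3% also occurred in Gm20425, a gene that overlaps Trf on the same strand in GENCODE M21. Gm20425 is not among the genes counted, and Trf shares 0 exon bases with any counted gene on its strand.

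In the remaining lists, the 11 tested iron regulatory proteins and IRE transcripts had 1 DEG (Slc11a2), beside 5.31% of all genes tested, and a median log2 fold change of 0.03. The regulatory proteins Aco1 and Ireb2 had log2 fold changes of -0.04 and -0.08, and Fbxl5, the ligase subunit that removes Ireb2, had 0.15, with none past the threshold. The 12 tested genes of heme synthesis and breakdown had 1 DEG, Hmox1, beside the same 5.31%. Hmox1, the inducible heme oxygenase, was at 38.7, 46.4, 30.1 and 34.7 CPM in control mice 154, 159, 181 and 193 and 21.2, 32.4, 34.0 and 22.2 CPM in Mc1r LKO mice 141, 156, 157 and 182. Its genotypes overlapped, the log2 fold change was -0.44 (edgeR, adjusted p = 0.734), and the call was lost without control mouse 154 (-0.42) or 159 (-0.32) or Mc1r LKO mouse 141 (-0.33) or 182 (-0.35).

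The 18 tested genes of mitochondrial iron and iron-sulfur clusters had 2 DEGs, both higher in Mc1r LKO mice, beside 2.64% of all genes tested, and a median log2 fold change of 0.11. Isca2, a late-acting assembly factor, was at 22.4 ± 2.89 CPM in control mice and 27.6 ± 1.05 CPM in Mc1r LKO mice (log2 fold change 0.30, adjusted p = 0.734 in edgeR), without overlap, and was just under the fold limit without control mouse 181 (0.24). Over all lists, 88 of the 91 other iron genes were tested and 7 were DEGs, 5 higher and 2 lower, beside 5.31% of all genes tested. Their genotypes did not overlap in 8 genes, 7 higher and 1 lower, beside 4.16% of all genes tested, which also leaned higher (352 genes higher and 206 lower). The median log2 fold change of the other iron genes was 0.02.

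The way the iron genes varied together over the 8 mice was examined in 12 relations, to which Hamp with Tfrc was added after the values had been seen. Hamp and Hamp2 were both lowest in control mouse 154 and Mc1r LKO mouse 157, with a Pearson's r of 0.83 and a Spearman's rho of 0.76 on log2 CPM (exact permutation p = 0.011 and 0.037, adjusted p = 0.127 and 0.221 over 12 relations). Without these mice r was 0.58 (exact permutation p = 0.232, 6 mice), and it was between 0.73 and 0.91 when 1 mouse was left out. Tfrc ran the other way and was highest in mice 154 and 157 and lowest in mouse 182, with r = -0.84 and rho = -0.83 (exact permutation p = 0.007 and 0.015, adjusted p = 0.069 and 0.159 over 13 relations), and r = -0.63 without mice 154 and 157 (exact permutation p = 0.171, 6 mice). It was between -0.90 and -0.76 when 1 mouse was left out.

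Ftl1 and Fth1 varied together, with r = 0.78 and rho = 0.79 (exact permutation p = 0.025 and 0.028, adjusted p = 0.148 and 0.221), and r = 0.79 without mice 157 and 193 (exact permutation p = 0.075). Hamp had r = 0.68 with Tfr2 and 0.60 with Id1 (rho 0.62 and 0.67, exact permutation p = 0.068 and 0.116 for r and 0.115 and 0.083 for rho, adjusted p between 0.206 and 0.278), which became 0.50 and 0.62 without mice 154 and 157. Hamp had an r of 0.01 with Bmp6 (rho -0.05, exact permutation p = 0.972 and 0.935, adjusted p = 0.972 and 0.935), and -0.08 without mice 154 and 157. Fth1 and Tfrc had r = 0.69 and rho = 0.64 (exact permutation p = 0.069 and 0.096, adjusted p = 0.206 and 0.276), with r = 0.49 without mice 157 and 182. For Hamp with Socs3, Saa1, Smad7 and Smad6, r was 0.42, 0.16, -0.04 and -0.25 and rho 0.14, 0.14, -0.33 and -0.10 (exact permutation, adjusted p between 0.581 and 0.972). None of the 12 relations passed an adjusted p-value of 0.05.

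**Figure D5:**
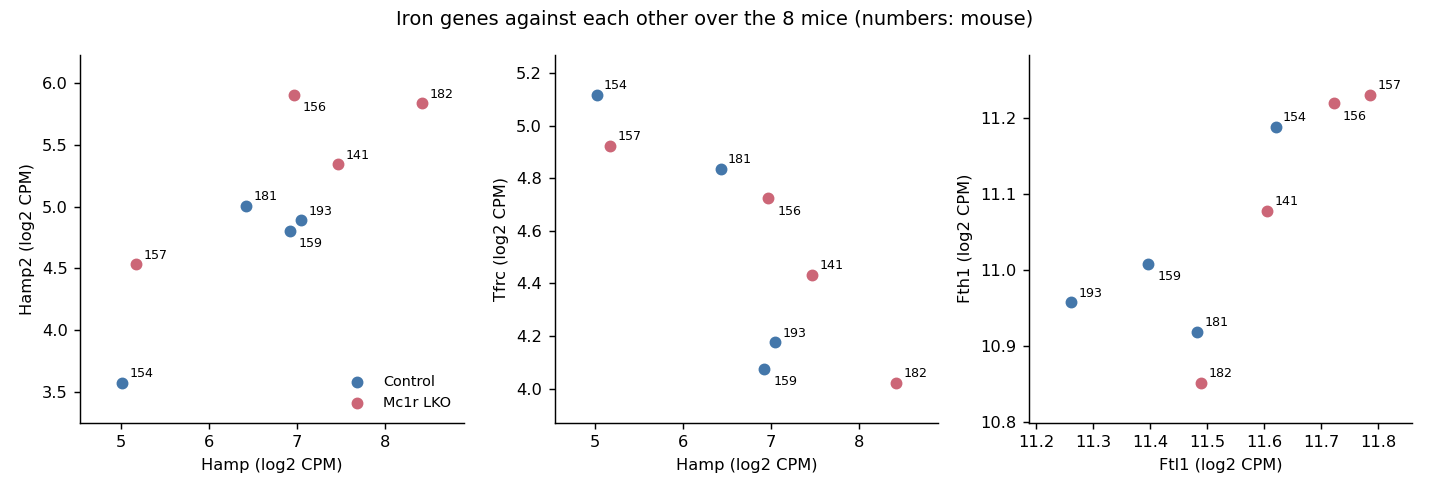
Log2 CPM of pairs of iron genes in each of the 8 mice, with control mice in blue, Mc1r LKO mice in red and the number of the mouse beside each point. Mice 154 and 157 lie at the low end of Hamp and Hamp2 and at the high end of Tfrc, 1 from each genotype.

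The genes whose levels over the 8 mice were most like those of 3 iron genes were ranked by Pearson's r of log2 CPM over all genes tested, as a description. For Hamp they were Tmem63a, Rbp4 and Igfbp4, each at 0.96. For Tfrc they were Lrrc28 at 0.99, Scd1 at 0.98 and Elovl6 at 0.97. For Slc40a1 they were Chrd at 0.98, Adcy4 at 0.97 and Il1b at 0.96. Values of this size are the highest of 13400 comparisons over 8 mice.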

How the data were processed

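Liver RNA of the 8 mice was extracted and sequenced as stranded mRNA libraries. The authors trimmed the reads (Trim Galore 0.6.6), aligned them (STAR 2.7.6a) and counted them on genes (featureCounts of Subread 2.0.1), and deposited whole-number counts per gene for each mouse. The table headers name GRCm38, Ensembl release 102, counting by strand (option 2) and no counting of reads shared between places or genes, while the methods write GRCh38. From these counts, genes were filtered with filterByExpr (minimum count 10, minimum total 15), scaled with TMM factors and fitted by quasi-likelihood (glmQLFit, glmQLFTest; edgeR 4.0.16 under R 4.3.3), and p-values were adjusted after Benjamini and Hochberg over all genes tested. The test within the DGA-quik software used by the authors is not named. The study's methods give the p-value threshold without an adjustment and its results text calls it adjusted, and the unadjusted form was used here. A prior count of 2 was used for log2 CPM.

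The test was checked on simulated counts. Ratios and relations over mice were tested by exact permutation (scipy 1.17.1), two-sided. DESeq2 1.42.0, limma-voom (limma 3.58.1) with quality weights, the likelihood ratio test, other normalizations and filters, other fold limits and leaving out mice served as alternatives. Mice are separate animals, and no batch is named for them. Outside the 10 genes, the text names DEGs of the iron lists, a set of regulators and targets, and the 3 genes most like each of Hamp, Tfrc and Slc40a1. Csf1r and Tat were named because of their values. The genes, the lists and the alternatives were chosen with earlier results of these data known. Promoters came from RefSeq and transcripts from GENCODE M21 (searched with Biopython 1.88), and protein sequences were not used here. Hjv is listed under its older symbol Hfe2. One gene of the iron lists is included in the counts and medians, and its own values are not reported here.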

Additional observations from a re-analysis of the deposited data

Results flagged for a closer look

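Of 34 groups of 4 mice checked, among which chance alone gives about 1.7, 1 had a mouse far from the others. Mc1r LKO mouse 182 had 402 CPM of Tfr2, and its group otherwise spanned 288 to 302 CPM, so that the gap to the nearest of them was 0.874 of the range of the group. This mouse also had the highest Hamp and Il6ra values and the highest first principal component, and the part of its library in the Tfr2 value was not tested.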

How the results depend on the processing

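No paired analysis was possible because the mouse numbers are not shared between the genotypes. Genes at an adjusted p-value numbered 17 with DESeq2, 8 with the likelihood ratio test and 1 without a filter, and 0 without any single mouse. Genes past the unadjusted threshold numbered 1140 without a filter and 86 with a log2 fold limit of 1, where 0 of the 10 iron genes and 0 of the other iron genes remained past it, and between 606 and 931 without each mouse. Without 1 mouse, 0 to 3 of the 10 iron genes and 4 (control 181) to 8 of the other iron genes passed. Genes without overlap numbered 874 to 1223 without 1 mouse and 1739 without both 181 and 182, since fewer mice overlap less often.

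With voom, without 181 and 182, or with library size alone (which shifts the median of all genes by -0.045 and gives 25.3% of DEGs as higher, against 49.8%), the calls at the borderline moved. The log2 fold change of Hamp fell from 0.87 to 0.28 with voom. That of Hamp2 was 0.73 with voom and 0.84 without both mice, past the threshold in neither. That of Hfe was 0.23 with voom, 0.21 with library size alone and 0.23 without both mice, all under the fold limit. Slc40a1 passed with voom (-0.26), library size alone (-0.27) and without both mice (-0.31), Ftl1 with voom (0.26) and without both mice (0.28), and Bmp6 without both mice (0.68). Bmp2 lost its call with the likelihood ratio test (0.35), voom (0.31), library size alone (0.31) and 10 counts in every mouse (0.35), Atoh8 and Isca2 with library size alone (0.29 and 0.26) and Hmox1 with voom (-0.35). Tfrc turned to 0.13 with voom and 0.18 without both mice, and Tfr2, at -0.0004 in the reported fit, to 0.0016 with DESeq2, 0.0015 with RLE and 0.0054 without a filter. The causes were not tested.

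Without 1 mouse, the log2 fold changes ranged from 0.28 to 1.22 for Hamp, 0.60 to 1.06 for Hamp2, -0.20 to 0.16 for Tfrc, -0.12 to 0.056 for Tfr2, -0.28 to -0.13 for Slc40a1, 0.16 to 0.28 for Ftl1, 0.21 to 0.33 for Hfe and 0.26 to 0.60 for Bmp6. The medians of the hepatocyte, Kupffer cell and endothelial markers, a choice made after seeing the data, ranged from 0.05 to 0.30, -0.69 to -0.15 and -0.17 to -0.01. The ratio differences ranged from -0.14 to 0.51 (Hamp2 to Hamp), -0.18 to -0.095 (Fth1 to Ftl1) and -0.27 to 0.22 (Tfr2 to Tfrc). Pearson's r of Hamp ranged from -0.23 to 0.27 with Bmp6, -0.21 to 0.34 with Smad7, -0.40 to 0.30 with Smad6 and -0.12 to 0.44 with Saa1, and that of Slc40a1 with the Kupffer cell markers from -0.36 to 0.76. With Bmp6, r was -0.026 with library size alone, -0.17 after centring on the genotype and -0.078 without the mice farthest from the median, where r with Saa1 was -0.15. After centring, r was 0.066 with Smad7 and -0.87 with Tfrc, the pair added after the values had been seen. Permuting the centred values over all 8 mice gave this pair an adjusted p of 0.019 over 13 relations. Centring ties the values within a genotype, so that this p-value is not exact, and the adjustment does not cover the choice of the pair. Among the 10 genes the depth limits Bmp6 most, with 20 to 74 counts per mouse.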
